A study of Mus musculus with 4 samples.

Results

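The genes described here are secreted and surface products known from disease-associated microglia, a state that microglia take on around amyloid plaques and other damage. The list holds 10 genes: the secreted factors Spp1, Igf1, Csf1 and Lgals3, the protease inhibitor Cst7, the tetraspanins Cd9 and Cd63, the membrane proteins Gpnmb and Ank, and the sterol enzyme Ch25h. Each was matched to a probe set that carries exactly 1 gene symbol, and 8 of the 10 were found among 17633 named genes. Spp1 is carried by no probe set of the annotation used here, and the probe set of Ank also carries another symbol, so neither was analysed here.

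Microglia are the macrophages that reside in the brain tissue. They were prepared from the whole brain of male mice (strain C57BL/6J) that served as controls, given PBS, or formed the allergy group, given OVA. The cells were taken 1 day after the mice were challenged through the nose, at an age of 30 days (P30) or 70 days (P70). The arrays were PBS at P30, OVA at P30, PBS at P70 and OVA at P70, each of microglia pooled from 4 samples, so each group had 1 array. There was no spread within a group, no test was made, and every difference is between 2 arrays whose number limits the precision. In such material, fewer cells of a type and less RNA per cell cannot be told apart. All 19 measured homeostatic microglia genes were above the floor for expressed genes defined below, with Siglech between 16.93 and 17.50 log2 units.

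In the known course of this state homeostatic genes are lost, and signalling through the lipid receptor Trem2 accompanies the gain of genes for lysosomal, lipid and secreted proteins. Several of its secreted and surface genes, such as Igf1, Spp1, Gpnmb and Cst7, are also known from microglia of white matter in early postnatal life. Csf1 is a ligand of the receptor Csf1r, on which microglia depend for survival, and Igf1 encodes an insulin-like growth factor. Lgals3 encodes a galectin that binds glycans on cell surfaces, and Cst7 encodes cystatin F, an inhibitor of lysosomal cysteine proteases such as cathepsin C. Cd9 and Cd63 encode tetraspanins, membrane organisers of which Cd63 resides mainly in late endosomes and lysosomes. Gpnmb encodes a lysosomal and cell-surface glycoprotein, and the enzyme encoded by Ch25h hydroxylates cholesterol to an oxysterol.

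The promoters of the 3 genes whose levels spanned the most among those expressed, Cst7, Cd9 and Cd63, are shown because the results below turn on these genes. Each window runs from 250 bases before to 50 bases after the gene start, is taken from RefSeq and is written 5′ to 3′ on the gene's strand. Capitals mark matches to GAGGAA, a longer form of the ETS core GGAA, or to its reverse complement. The 3 other motifs searched on both strands had no match in these windows.
Cst7 (GRCm38.p6, chr2:150570165-150570464, plus strand): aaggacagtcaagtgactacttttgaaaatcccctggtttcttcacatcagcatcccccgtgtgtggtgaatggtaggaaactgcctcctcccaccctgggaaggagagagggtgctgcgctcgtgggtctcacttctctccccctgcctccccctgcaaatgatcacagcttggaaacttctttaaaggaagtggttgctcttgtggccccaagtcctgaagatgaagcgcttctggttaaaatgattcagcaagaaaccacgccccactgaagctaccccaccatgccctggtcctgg
Cd9 (GRCm38.p6, chr6:125494711-125495010, minus strand): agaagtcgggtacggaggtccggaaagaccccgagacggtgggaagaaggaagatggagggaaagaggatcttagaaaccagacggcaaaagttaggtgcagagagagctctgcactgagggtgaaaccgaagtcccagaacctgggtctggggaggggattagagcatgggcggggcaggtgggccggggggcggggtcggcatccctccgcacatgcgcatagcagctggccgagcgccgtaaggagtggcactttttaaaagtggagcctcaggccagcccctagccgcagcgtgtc
Cd63 (GRCm38.p6, chr10:128909095-128909394, plus strand): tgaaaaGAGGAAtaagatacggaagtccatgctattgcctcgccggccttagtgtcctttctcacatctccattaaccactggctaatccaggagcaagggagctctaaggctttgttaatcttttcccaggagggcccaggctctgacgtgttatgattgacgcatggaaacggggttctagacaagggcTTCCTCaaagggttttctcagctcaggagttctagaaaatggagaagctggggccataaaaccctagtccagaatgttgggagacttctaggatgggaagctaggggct
The other motifs were the E-box CACGTG, the AP-1 sites TGAGTCA and TGACTCA, and TATAAA. Among all 32851 promoters of that table, 28.3% held GAGGAA, 7.15% the E-box, 5.20% an AP-1 site and 13.6% TATAAA. Cd63 held 2 matches to GAGGAA, and Cst7 and Cd9 none. The shorter GGAA, which the windows of Cst7 and Cd9 also hold, was not marked or counted. The marked matches in Cd63 do not overlap. A match describes these letters and not a bound site.

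Levels are log2 deposited intensities, and a gene is called expressed where it averaged 7.18 or more across arrays, the median over the named genes. By this rule 5 of the 8 measured genes were expressed (Csf1, Lgals3, Cst7, Cd9 and Cd63), and Igf1, Gpnmb and Ch25h lay under the floor. The floor does not mark the absence of a transcript, so the same arrays were also read at 1530 probe sets of olfactory and vomeronasal receptors, genes of sensory epithelia. Their 95th percentile on the PBS and OVA arrays was 9.17 and 8.94 at P30, and 8.44 and 7.98 at P70. Cd9 and Cd63 had mean levels above all 1530 of these probe sets, and Cst7 stood above 95.6% of them. Lgals3 (90.2%), Csf1 (87.3%), Gpnmb (75.9%), Igf1 (70.4%) and Ch25h (52.5%) stood within their range.

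**Figure D1:**
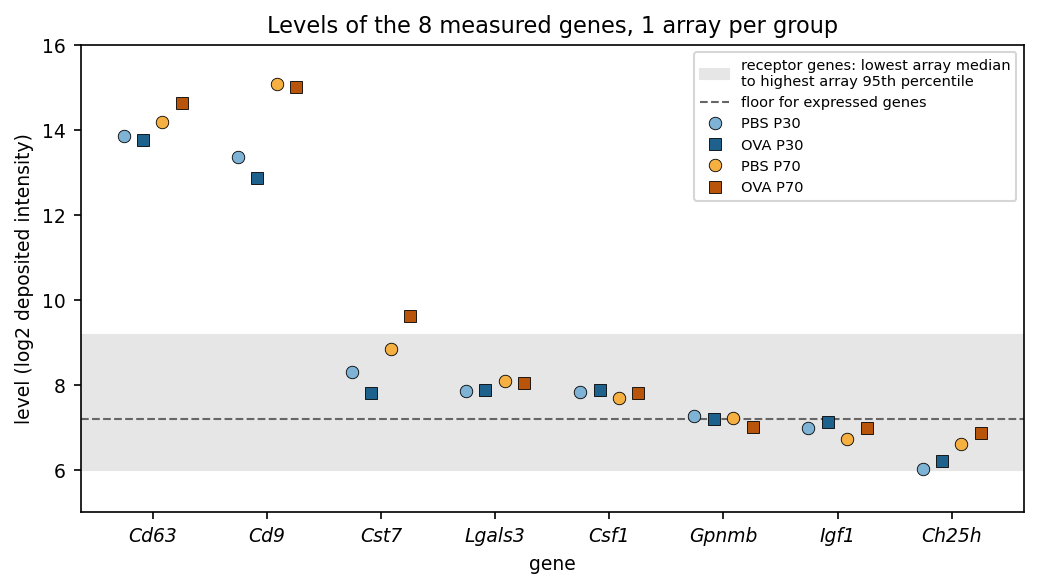
Levels of the 8 measured genes in log2 deposited intensity, with 1 point for each array; the dashed line is the floor of 7.18 and the grey band runs from the lowest array median to the highest array 95th percentile of the receptor probe sets. Cd63 and Cd9 lie far above the band on every array, Cst7 leaves it in OVA at P70 (9.61), and the other 5 genes lie inside it.

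The secreted factors were dim and nearly level across the arrays. Their means lay in the range of the receptor probe sets, so stable expression is not read from this. Giving the PBS array first at each age, Csf1 was at 7.83 and 7.87 at P30, and at 7.70 and 7.80 at P70, a span of 0.17. Lgals3 was at 7.86 and 7.88 at P30, and at 8.08 and 8.03 at P70. Igf1 was at 6.97 and 7.12 at P30 and at 6.72 and 6.98 at P70. For none of the 3 did the 4 levels differ by as much as 1.5-fold (0.58 log2 units).

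Cst7 had its lowest level in OVA at P30 and its highest in OVA at P70. At P30 its level was 8.30 with PBS and 7.79 with OVA, and at P70 it was 8.85 with PBS and 9.61 with OVA. The deposited intensities were 315.6, 221.8, 461.9 and 779.5 in the same order. The 2 OVA arrays thus lay on either side of both PBS arrays. Both levels at P30 lay under the 95th percentile of the receptor probe sets on their array (9.17 and 8.94), and both at P70 above it (8.44 and 7.98).

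The tetraspanins were the bright genes of the set, the means of both lying above all of the receptor probe sets. Cd9 was at 13.37 with PBS and 12.87 with OVA at P30, and at 15.07 with PBS and 15.01 with OVA at P70. Cd63 was at 13.86 and 13.76 at P30 and at 14.18 and 14.62 at P70, again with PBS first. For Cd9 both arrays of P70 stood well above both of P30, whereas for Cd63 the OVA array of P70 stood highest. Neither gene moved with the upper signal limit of the arrays (19.74 to 19.93).

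Gpnmb was flat, at 7.25 with PBS and 7.18 with OVA at P30 and at 7.20 and 7.01 at P70. Ch25h, the dimmest of the set, was at 6.03 and 6.21 at P30 and at 6.59 and 6.86 at P70. At these levels the signal cannot be separated from that of the receptor probe sets, so no order is read from the 4 values of Gpnmb or of Ch25h.

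The first comparison set the allergy array against the control array of the younger mice. At P30 none of the 8 measured genes differed by 1.5-fold between OVA and PBS, against 1.55% of the 8817 expressed genes and 1.17% of all named genes. Cst7 and Cd9 came nearest, lower in OVA by 0.51 each (1.42-fold), with both Cst7 levels in the range of the receptor probe sets. Cd63 differed by -0.10, or by 0.043 relative to homeostatic genes, whose median followed the upper signal limit of the arrays. Among the expressed genes, Cst7 held rank 133 and Cd9 rank 135 from the lowest difference. Csf1 (0.034), Lgals3 (0.024), Igf1 (0.14), Ch25h (0.19) and Gpnmb (-0.071) completed the set. The 5 expressed genes had a median of -0.10, and all expressed genes one of -0.014.

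Neutrophil markers were lower in OVA at P30 as well. In that list, 7 of the 12 expressed markers were at least 1.5-fold lower, led by Retnlg (-1.95), Ngp (-1.76), S100a9 (-1.64) and S100a8 (-1.53), and the summed intensity of its 14 measured markers was 78598 with PBS and 30424 with OVA. The part of neutrophils in the lower Cst7 and Cd9 levels was not tested. The summed intensity of 19 homeostatic microglia genes was 1772793 in PBS and 1603788 in OVA, and their median difference was -0.14. The upper signal limit of the arrays was lower in OVA by as much, at 19.88 with PBS and 19.74 with OVA. Some genes of this list, Cst3 among them, followed that limit, so the median is not read as a change in microglia. Relative to that median, which matched the shift of the limit, Cst7 and Cd9 were lower by 0.37 and 0.36. Relative to the median of all expressed genes they stood at -0.49 each.

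At P70 the same question was asked of the older mice, and 1 gene of the set, Cst7, passed 1.5-fold. It was 1.69-fold higher in OVA (0.76), at rank 136 from the highest of the 8817 expressed genes, of which 4.00% were at least 1.5-fold higher, as were 2.48% of all named genes. Cd63 was 1.36-fold higher (0.44, rank 777). Cd9 (-0.061), Lgals3 (-0.051) and Csf1 (0.099) differed by less than 0.10. The 3 genes under the floor gave 0.26 for Igf1, 0.27 for Ch25h and -0.20 for Gpnmb. The median was 0.099 over the 5 expressed genes and 0.091 over all expressed genes. Cst7 remained at 0.65 and Cd63 at 0.34 after each array was centred on its median, and at 0.64 and 0.27 after centring along the level. Over all expressed genes, 353 were higher and 107 lower as deposited, and 204 and 180 after centring each array on its median.

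**Figure D2:**
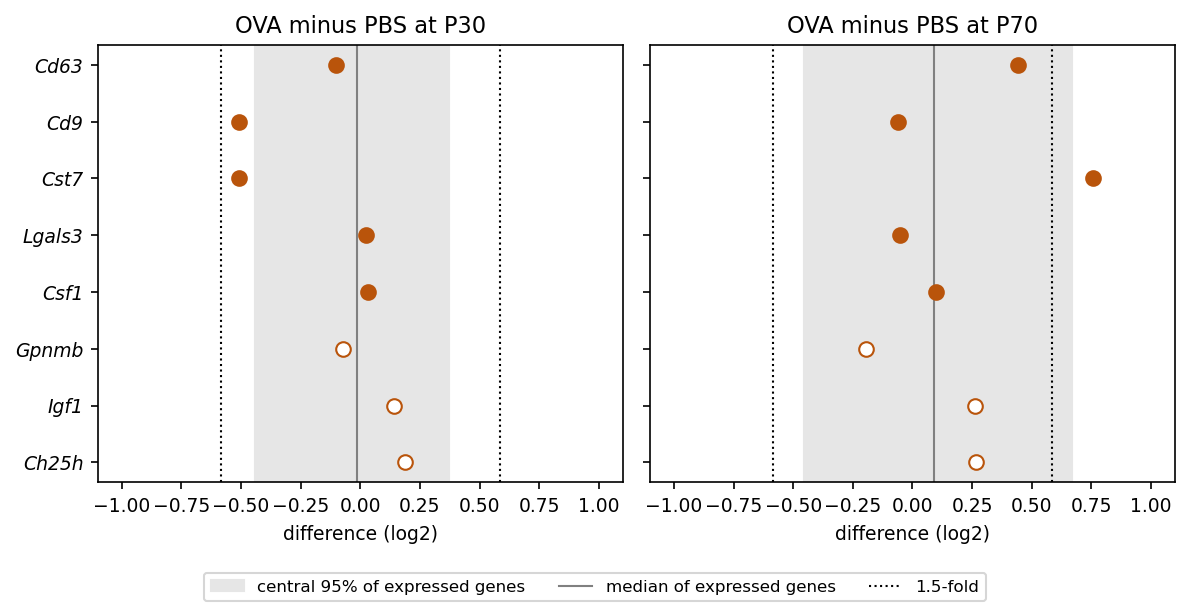
OVA minus PBS differences (log2) of the 8 measured genes at P30 and at P70; filled points are expressed genes, open points genes under the floor, the grey band is the central 95% of expressed genes and dotted lines mark 1.5-fold. Cst7 lies left of the band at P30 (-0.51) and right of it at P70 (0.76), and Cd9 lies left of the band at P30 alone.

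Markers of other myeloid cells also differed at P70. Of 10 expressed border macrophage markers, 6 were at least 1.5-fold higher in OVA, led by Pf4 (1.97), Ms4a7 (1.94), Cd36 (1.32) and Dab2 (1.30), and the summed intensity of the 12 measured was 4299 in PBS and 10479 in OVA. Of 9 expressed monocyte markers, 2 were higher, S100a4 (1.16) and Treml4 (0.97), with summed intensities of 22613 and 25413 over 11 measured. Their part in the higher Cst7 and Cd63 levels was not tested. Cst7 is also known from lymphocytes. Of 12 measured T and NK cell markers 5 were expressed, namely Cd3g, Il7r, Nkg7, Klrb1c and Gzma. The others, Cd3d, Cd3e, Cd4, Cd8a, Cd8b1, Ncr1 and Gzmb, lay under the floor. None of the 5 expressed markers differed by 1.5-fold between OVA and PBS at either age. The part of lymphocytes in the Cst7 levels was not tested. The summed intensity of those 12, PBS first, was 2931 and 2871 at P30, and 2922 and 3251 at P70. All 9 neuron markers lay under the floor. Of the astrocyte and the ependymal and choroid markers, 3 were expressed. Ttr, the transthyretin gene of the choroid plexus, was at 7.45 with PBS and 9.32 with OVA at P30 and at 7.90 and 12.02 at P70, differences of 1.87 and 4.12. The astrocyte markers Slc1a3 and Ndrg2 were higher in OVA at P70 by 0.70 and 0.89. The part of these cells in the levels of the set was not tested.

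Setting the OVA differences of the ages side by side, Cst7 stood at -0.51 for P30 and at 0.76 for P70, a difference between the differences of 1.26. That value held rank 49 from the highest of the expressed genes, of which 7.77% reached 1.5-fold higher, as did 4.68% of all named genes. It was between 1.00 and 1.31 under the other scalings tried. The P30 levels behind it lay in the range of the receptor probe sets, so the P30 part of this value is not read as a direction. Cd63 (0.54) and Cd9 (0.45) stayed short of 1.5-fold, as did the other 5 genes, between -0.12 and 0.12. No test of the difference between the ages could be made with 1 array per group.

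The other known genes of the same state were read from a list of 34, of which 31 were measured and 29 expressed. At P30, 6 of these were at least 1.5-fold lower in OVA and 2 higher, with a median of -0.17, where 1.55% of all expressed genes passed in either direction. The largest differences were those of the chemokine gene Ccl3 (2.03), the lectin receptor gene Clec7a (-1.71), Ccl6 (-1.11) and the lysozyme gene Lyz2 (-0.93). Neutrophil markers were lower in OVA on the same arrays, and the part of neutrophils in these lower values was not tested. At P70, 8 were higher and none lower, with a median of 0.29, where 4.00% of all expressed genes were higher, led by Cd83 (1.18), the NADPH oxidase gene Cybb (1.00), Clec7a (1.00) and Ccl3 (0.99). Clec7a, Cybb and the inhibitory receptor gene Lilrb4a had OVA differences of the same signs as Cst7, with -1.71, -0.56 and -0.62 for the younger mice, then 1.00, 1.00 and 0.78 for the older. At P30 both levels of Cybb (8.81 and 8.25) and of Lilrb4a (8.80 and 8.18) lay under the receptor 95th percentiles (9.17 and 8.94). Like that of Cst7, their P30 signs are not read as a direction. Clec7a was above that percentile with PBS (9.84) and under it with OVA (8.13). In all, 20 of the 29 (69.0%) were lower in OVA at P30 and higher at P70 by any amount, as were 35.1% of all expressed genes. Homeostatic microglia genes had medians of the same signs (-0.14 at P30 and 0.098 at P70). So did expressed genes with a mean level of 11 to 13 (-0.063 and 0.185), so the signs of the medians are not particular to this list. The share of single genes with both signs was not counted in those groups. The lipid receptor gene Trem2 (-0.28 and 0.079), its adaptor gene Tyrobp (0.087 and 0.086) and the apolipoprotein gene Apoe (-0.17 and 0.40) stayed within 1.5-fold at both ages.

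**Figure D3:**
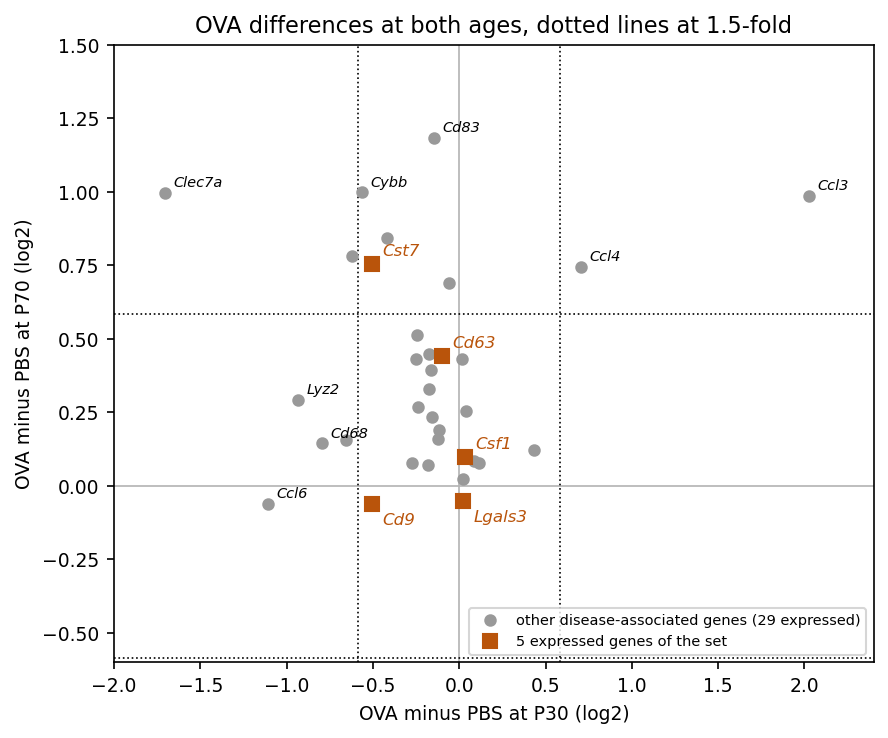
OVA minus PBS differences (log2) at P30 on the horizontal and at P70 on the vertical axis, for the 5 expressed genes of the set (squares) and 29 other expressed genes of disease-associated microglia (circles), with dotted lines at 1.5-fold. Cst7 lies at upper left, as do Clec7a and Cybb, and Csf1 and Lgals3 lie near the origin.

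The age comparisons set P70 against P30 within each treatment, and share their arrays with the OVA comparisons. In PBS, Cd9 was 3.24-fold higher at P70 (1.70), the 1 gene of the 8 past 1.5-fold, whereas 29.1% of the expressed genes and 15.1% of all named genes were at least 1.5-fold higher. In OVA, Cd9 was 4.42-fold higher (2.14), Cst7 3.52-fold (1.81) and Cd63 1.82-fold (0.86), where 38.6% of the expressed genes and 20.1% of all named genes were higher. The value of Ch25h, at 0.65, also passed the threshold but came from levels in the range of the receptor probe sets, and no change is read from it. Cst7 (0.55) and Ch25h (0.57) in PBS lay just short of 1.5-fold, and Cd63 was at 0.32. The secreted factors, with means in the range of the receptor probe sets, gave small differences, from which no stability with age is read. These were -0.26 in PBS and -0.14 in OVA for Igf1, -0.14 and -0.071 for Csf1, and 0.23 and 0.15 for Lgals3. Gpnmb differed by -0.048 and -0.17.

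Most bright genes stood higher at P70, so these differences were read against the general shift. The median of all expressed genes was 0.26 in PBS and 0.39 in OVA. Among the 282 genes with a mean level of 13 or more, where Cd9 and Cd63 lie, it was 1.00 and 1.17, and 68.4% and 74.8% of them were at least 1.5-fold higher. Cd9 exceeded the medians of these bright genes in both treatments, and Cd63 was under them. After centring along the level, Cd9 was at 0.68 in PBS and 0.96 in OVA and Cst7 at 0.22 and 1.32. Cd63 turned negative there, at -0.70 in PBS and -0.32 in OVA, so no direction with age is read for it. Over all expressed genes, 2563 were higher and 257 lower at P70 in PBS as deposited, and 1034 and 763 after that centring; in OVA these numbers were 3405 and 383, and 1188 and 966.

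**Figure D4:**
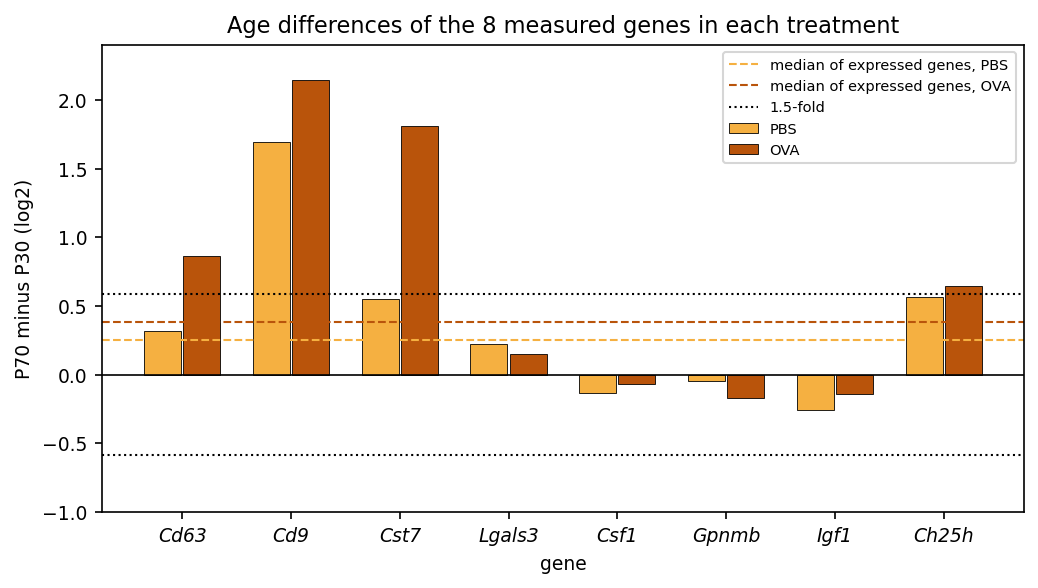
P70 minus P30 differences (log2) of the 8 measured genes, with 1 bar for PBS and 1 for OVA; dashed lines are the medians of all expressed genes (0.26 in PBS, 0.39 in OVA) and dotted lines mark 1.5-fold. Cd9 stands highest in both treatments and Cst7 differs most between them (0.55 and 1.81), while Csf1, Gpnmb and Igf1 lie below 0.

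Many neutrophil and monocyte markers were higher at P70 too. Of the 12 expressed neutrophil markers, 10 were at least 1.5-fold higher in PBS and 10 in OVA, with Cxcr2 and Csf3r short of it in both. Of the 9 expressed monocyte markers, 6 were higher in PBS and 7 in OVA, where Treml4 was added, and Nr4a1 and F13a1 passed in neither. Of all expressed genes, 29.1% in PBS and 38.6% in OVA were so. These shares were 15.8% and 23.0% for expressed genes with a mean level under 9, and 66.7% and 79.1% for those of 11 to 13. The summed intensity of the neutrophil list was 895179 with PBS and 763682 with OVA at P70, against 78598 and 30424 at P30, and that of the monocyte list 22613 and 25413 against 2616 and 2716. Ly6c2, at 9.78 and 10.03 at P30 and at 14.14 and 14.19 at P70, was the brightest of the monocyte markers. Cd9 and Cst7 are not confined to microglia, and the part of these cells in the higher levels at P70 was not tested. Homeostatic microglia genes had a median of 0.33 in PBS and 0.32 in OVA, and relative to it Cd9 stood at 1.37 and 1.82 and Cst7 at 0.22 and 1.49.

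The partners of these proteins were read from fixed lists. Of the 8 receptor genes for osteopontin, the product of Spp1, all were expressed and none differed by 1.5-fold between OVA and PBS; the largest difference at P30 was that of the integrin gene Itgav (-0.45) and at P70 that of Cd44 (0.29). Csf1r, the receptor of Csf1, was at 15.37 with PBS and 15.10 with OVA at P30 and at 14.72 and 15.12 at P70, differences of -0.27 and 0.40, while its other ligand gene Il34 lay under the floor. Among 9 measured genes of the Igf1 receptor and binding proteins, 3 were expressed; the receptor gene Igf1r differed by 0.054 and -0.063, and Irs2, an adaptor of insulin and Igf1 receptors, was higher in OVA at P70 by 1.02.

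Of the 4 expressed proteases listed for cystatin F, none differed by 1.5-fold between OVA and PBS at either age. Ctsc, which encodes the cathepsin C that cystatin F inhibits, was at 10.64 with PBS and 10.15 with OVA at P30 and at 11.61 and 12.11 at P70. Its OVA differences of -0.49 and 0.50 stood beside -0.51 and 0.76 for Cst7, and did not reach 1.5-fold. Ctsh, Ctsl and Lgmn, the other 3 proteases listed, differed by between -0.18 and 0.26 at either age. Of the other cystatins, Cstb was higher in OVA at P70 by 0.69, and Cst3 followed the upper signal limit of the arrays. Mitf, a transcription factor known to drive Gpnmb in other cells, was at 8.96 with PBS and 9.80 with OVA at P70, a difference of 0.84, while Gpnmb itself stayed under the floor; at P30 Mitf differed by -0.020.

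In the families of the surface and glycan-binding genes, relatives did not share 1 pattern. Of 12 other expressed tetraspanin genes, Tspan31 alone passed 1.5-fold between OVA and PBS, lower at P30 by 0.59, and 5 in PBS and 6 in OVA were at least 1.5-fold higher at P70, among them Tspan13 (1.49 and 1.63) and Cd53 (1.32 and 1.54). Of all expressed genes 29.1% and 38.6% were so. Median differences were 0.58 and 0.80 for genes with a mean level of 9 to 11, where Tspan13 lies. They were 0.90 and 1.14 for those of 11 to 13, where Cd53 lies. Among 5 other expressed genes of galectins and a galectin-binding protein, Lgals1 and Lgals9 were higher in OVA at P70 by 0.68 and 0.64. Lgals3 differed by -0.051, but its mean lay in the range of the receptor probe sets, so no contrast with them is read. Of the oxysterol genes around Ch25h, 2 of 7 measured were expressed: Gpr183, a receptor for oxysterols made from its product, differed by -0.040 at P30 and 0.50 at P70, and Insig2 by -0.058 and 0.12. Of 5 measured genes of phosphate and pyrophosphate handling, around the unmeasured Ank, 2 were expressed, and the phosphate exporter gene Xpr1 differed by 0.095 and 0.22.

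The genes nearest in pattern were sought for the 2 expressed genes that spanned at least 1 log2 unit, as the smallest root mean square distance between levels centred on each gene's mean over the 4 arrays. For Cst7 they were Ppp1ca (0.066), Iqgap1 (0.068) and Snhg5 (0.072), and 410 expressed genes lay within 0.25 of it. For Cd9 they were Ctla2b (0.019) and the C-type lectin genes Clec4a3 (0.024) and Clec5a (0.052), with 197 genes within 0.25. With 4 arrays such patterns are shared by many genes.

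**Figure D5:**
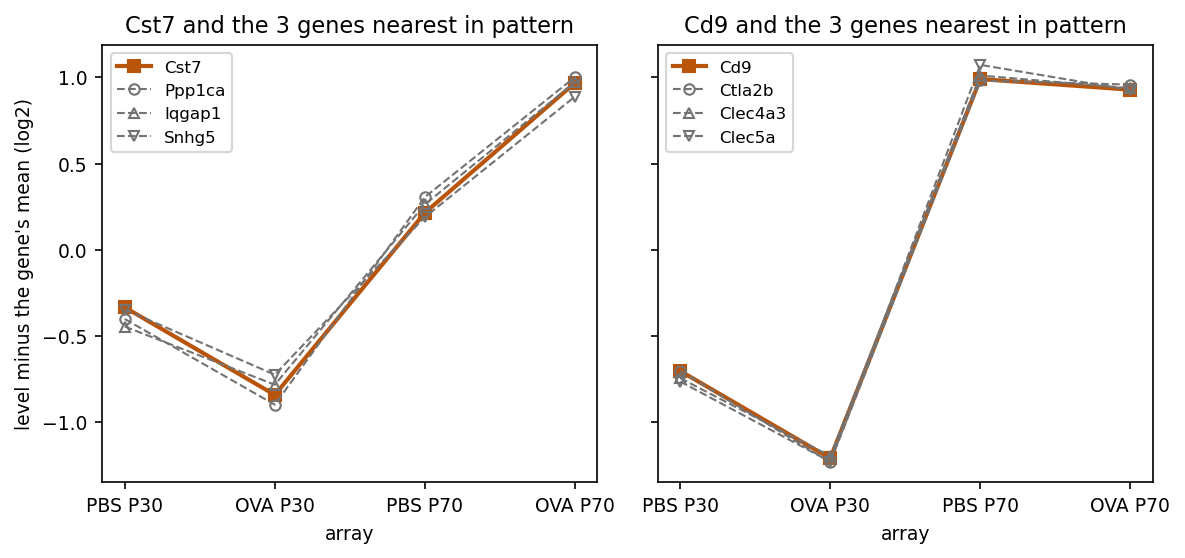
Levels of Cst7 (left) and Cd9 (right) and of the 3 genes nearest to each in pattern, as log2 level minus the gene's own mean, on each of the 4 arrays; lines join the arrays to guide the eye. Cst7 is lowest in OVA at P30 and highest in OVA at P70, and Cd9 is high on both P70 arrays, with distances of at most 0.072 to the genes shown.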

How the data were processed

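RNA of microglia was measured on 1-colour expression arrays, 1 for each of the 4 groups. The authors deposited normalized, linear intensities, 1 per probe set. Their processing notes list RMA and, without its role, Affymetrix Expression Console 1.4.1; the scaling between arrays is not stated. Log2 values of the deposited intensities were used with no further normalization, in Python 3.11.15 with pandas 2.3.3.

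Of 65956 probe sets, 30604 carried 1 gene symbol, 2146 several and 33206 none here; 827 symbols were updated by Entrez ID from RefSeq (GRCm38.p6). Predicted genes, small RNAs, sensory receptors and antigen receptor segments (12734 probe sets) were not kept, and the brightest probe set stood for a gene. Differences of at least 1.5-fold were counted without a test; the counting was tested on simulated data.

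Named genes are the members, up to 4 expressed genes of each other list with the largest difference (and any past 1.5-fold where at most 5), and the 3 nearest in pattern. Trem2, Tyrobp, Apoe, Lilrb4a, Cxcr2, Csf3r, Nr4a1, F13a1, Il34 and the T and NK cell markers were named after their values were seen. The members and lists were chosen with earlier results of these data known. Alternatives covered scaling, probe sets, a pseudocount of 32, a 2-fold threshold and the filter on dim genes. The receptor probe sets and the scaling to homeostatic genes were added after the data were seen.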

Additional observations from a re-analysis of the deposited data

Results flagged for a closer look

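Cst7 stood out because its OVA and PBS arrays differed in opposite directions at the 2 ages. The difference was -0.51 at P30 and 0.76 at P70, which lie 1.26 log2 units apart. Both P30 levels lay under the 95th percentile of the receptor probe sets, so the direction at P30 is not resolved from background. With 1 array per group this difference between the ages was not tested. Of the 8 measured genes no other had opposite signs and a gap of 1.5-fold.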

How the results depend on the processing

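No measured gene reached 1.5-fold at P30 under any alternative. At P70 the count of 1 (Cst7) was 0 at a 2-fold threshold, and 1 under the other alternatives. The counts take either direction. For age in PBS the count of 1 (Cd9) became 2 after quantile normalization, which added Ch25h (0.83). It was 3 after centring along the level, with Ch25h (0.63) and Cd63 (-0.70, lower at P70). Relative to the homeostatic genes it was 2, with Igf1 (-0.59, lower at P70). Ch25h and Igf1 had means in the range of the receptor probe sets. For age in OVA the count of 4 became 2 at a 2-fold threshold and 2 relative to the homeostatic genes; it was 3 with median centring, with centring along the level, with the pseudocount and with the stricter filter. Median centring took Cd63 (0.45) and Ch25h (0.23) out of it and added Gpnmb, which was at -0.59. Cd63, at 0.86 for age in OVA and 0.32 in PBS, was at -0.32 and -0.70 after centring along the level; the bright genes as a group were higher at P70, which that centring removes. Values of single genes numbered 255 in all, of which 244 stayed on their side of the threshold. Of the rest, 5 fell short of it, 4 newly passed it with the same sign, and Cd63 changed sign in the 2 cases just given. Among the 244, values short of the threshold could change sign. For age in OVA, quantile normalization took Igf1 from -0.14 to 0.18, Csf1 from -0.071 to 0.065 and Gpnmb from -0.17 to 0.13. Median centring took Lgals3 from 0.15 to -0.26 there. Cd9 at P70, at -0.061 for OVA minus PBS, was at 0.0029 after quantile normalization, so it has no direction. The mean of all probe sets equalled the brightest for these genes, which have 1 each, and the stricter filter kept Cst7, Cd9 and Cd63. No paired analysis was possible because each group has 1 array. Signal over background limits Igf1, Csf1, Lgals3, Gpnmb and Ch25h, and Cst7 at P30.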
